A study of Rattus norvegicus with 9 samples.

Results

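The comparison of occluded with sham-operated brain rested on 6 of the 9 RNA sequencing libraries in the series, chosen by their labels. Model 1, 3 and 4 were brain tissue of male Sprague-Dawley rats, taken 1 day after occlusion of the middle cerebral artery on a single side, an animal model of ischaemic stroke. Sham 1, 3 and 5 came from male Sprague-Dawley rats with a sham operation. The remaining 3 libraries were of occluded rats gavaged with astaxanthin, a carotenoid, for 7 days at 45 mg/kg, called the medium dose in the labels. They entered here only through the shared estimate of the spread and the filter that set which genes and transcripts were tested. The labels name neither the brain region nor the side that was sampled. They do not say whether each library stands for 1 animal, so the p-values measure only the spread between these libraries, which may be technical. Of 22888 genes listed, 17770 had a normalized read count of at least 0.5 in at least 3 of the 9 libraries and were tested, with their transcripts measured beside them.

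Loss of blood flow in the territory of the middle cerebral artery kills neurons and glia within hours, and the surviving astrocytes, microglia and vessel cells answer with a wound-like programme. That programme releases chemokines that call in blood leukocytes, proteases and protease inhibitors that act on clots and matrix, and cytokines that signal through Stat3. In bulk tissue, fewer cells of a type and less RNA per cell cannot be told apart, and neither can more cells and more RNA per cell.

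Depth was similar in both groups, at 60640476 to 70725032 recovered reads in the model libraries and 52268061 to 62148215 in the sham libraries. In a principal component analysis of the 6 libraries, model lay at 35.9 to 130.7 and sham at -86.5 to -68.0 on the first axis, with 46.1% of the variance. The second axis, with 19.7%, separated model 3, at 85.2, from model 1 at -84.9 and model 4 at -47.7. The pan-neuronal markers that define the labelled tissue were present throughout: Snap25, a synaptic fusion protein gene, had 29607 to 114143 normalized reads in the model libraries and 83361 to 127773 in the sham libraries. Sham 5 carried choroid plexus RNA, with a summed marker level of 118664 normalized reads against 789 and 1038 in the other sham libraries, and 3839 to 16473 in the model libraries.

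At an adjusted p under 0.05 in limma, 848 genes (4.77% of those tested) differed between model and sham. Of these, 613 were higher in model (3.45%) and 235 lower (1.32%). The rises were large and the falls were small. Among the higher genes the median log2 fold change was 2.49, and 246 rose at least 8-fold and 100 at least 32-fold. Among the lower genes the median was -1.29, 10 fell at least 8-fold, and Kcnv2 alone fell at least 32-fold on the fitted scale. Over all tested genes the median log2 fold change was 0.02. The count depended on single libraries in both groups. Without sham 3 it was 73, without sham 1 it was 80, without model 1 it was 129, and without sham 5 it was 171. Without model 3, the library that stood apart, 549 genes passed, of which 438 were among the 848. Without astaxanthin 1 it was 1611, without astaxanthin 2 it was 481 and without astaxanthin 3 it was 559. On whole reads recovered from the values, 2920 genes passed with DESeq2 and 721 with edgeR. Through all of these single-library fits, 64 genes (0.360%) kept their call, 61 higher and 3 lower.

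**Figure D1:**
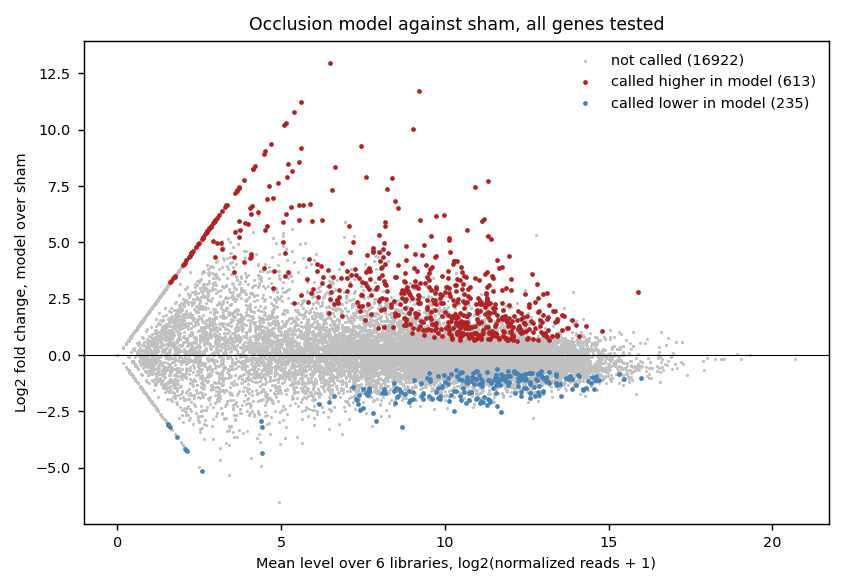
Log2 fold change of model over sham (vertical axis, difference of mean log2(value + 1)) against the mean level over the 6 libraries (horizontal axis, log2(normalized reads + 1)) for the 17770 genes tested, each point a gene. The 613 genes called higher reach far above 5, while only 1 of the 235 called lower lies below -5.

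The 3 model libraries did not contribute alike. Of the 613 higher genes, 406 (66.2%) had their highest model value in model 3, 180 in model 1 and 27 in model 4; over all tested genes, model 3 was the highest of the 3 in 42.6%. The median change of these genes from the sham mean was 2.39 in model 1, 3.01 in model 3 and 1.95 in model 4 on the log2 scale. For the 235 lower genes it was -1.41 in model 1, -1.42 in model 3 and -0.98 in model 4. Model 4 was thus the mildest of the 3 in both directions.

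The widest separation between groups was in genes without a read in any sham library. Of 390 tested genes at 0 in all 3 sham libraries, 131 had reads in all 3 model libraries, and 10 had at least 100 normalized reads in each. In the opposite direction, 141 genes were at 0 in all model libraries, 21 of them had reads in every sham library, and 0 had at least 100. A gene could enter the test through any 3 of the 9 libraries. One at 0 in sham could thus enter through the model or astaxanthin libraries, both from occluded rats. The totals of 390 and 141 therefore depend on the filter and cannot be set against each other. A count of 0 allows up to 3 reads per library, which is 3.52 normalized reads in sham and 2.87 in model, and bounds on fold changes are set against those floors, which cover counting error only.

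Ccl2, the chemokine that attracts monocytes, had 10518, 7300.3 and 6777 normalized reads in model 1, 3 and 4, against 0 in each sham library. Its model mean was at least 2328-fold above the sham floor (limma adjusted p = 0.000627). Its neighbour Ccl7, another monocyte chemokine, had 2649.7, 2102 and 2452 normalized reads in model 1, 3 and 4, against 0 in each sham library (limma adjusted p = 0.000785). Both genes lie on chromosome 10 (67005424 to 67007226 and 67016446 to 67018303), and both varied little between the model libraries. Il11, whose product belongs to the interleukin-6 cytokine family, had 1901, 1387 and 723 normalized reads in model 1, 3 and 4, against 0 in sham (limma adjusted p = 0.000785). Kng1 and Kng2l1, genes of kininogen, the precursor of the vasodilator peptide bradykinin, were also at 0 in sham. Kng2l1 had 1029, 5826 and 923 normalized reads in model 1, 3 and 4. Kng1 had 799, 3349.7 and 594. In both, model 3 stood several-fold above the other model libraries, and the model mean was at least 736-fold above the sham floor for Kng2l1 and at least 449-fold for Kng1. Reads may be shared between these near-identical genes, so the split between them is uncertain.

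Several other inflammatory genes at 0 in sham had their highest value in model 3. Ccl20, a chemokine for lymphocytes and dendritic cells, had 339, 3554 and 242 normalized reads in model 1, 3 and 4. Ccl3, a chemokine of macrophages, had 272, 2033 and 259, and the neutrophil chemokine Cxcl2 had 343, 2295 and 144. Il1b, the interleukin-1 beta gene, had 253, 901 and 161, and Tnf, the tumour necrosis factor gene, had 60.5, 184 and 86.0. All 5 were called, but Ccl20 kept its call in 5 and Ccl3 in 7 of the 9 fits without 1 library, while Cxcl2, Il1b and Tnf kept theirs in all 9. Reg3b, which encodes a secreted lectin of the regenerating gene family, had 392, 497 and 147 normalized reads in model 1, 3 and 4 and 0 in sham, and Trem1, a receptor of neutrophils and monocytes, had 216, 291 and 46.2. Cxcr2, the receptor for Cxcl2 on neutrophils, had 73.6, 657 and 105.

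**Figure D2:**
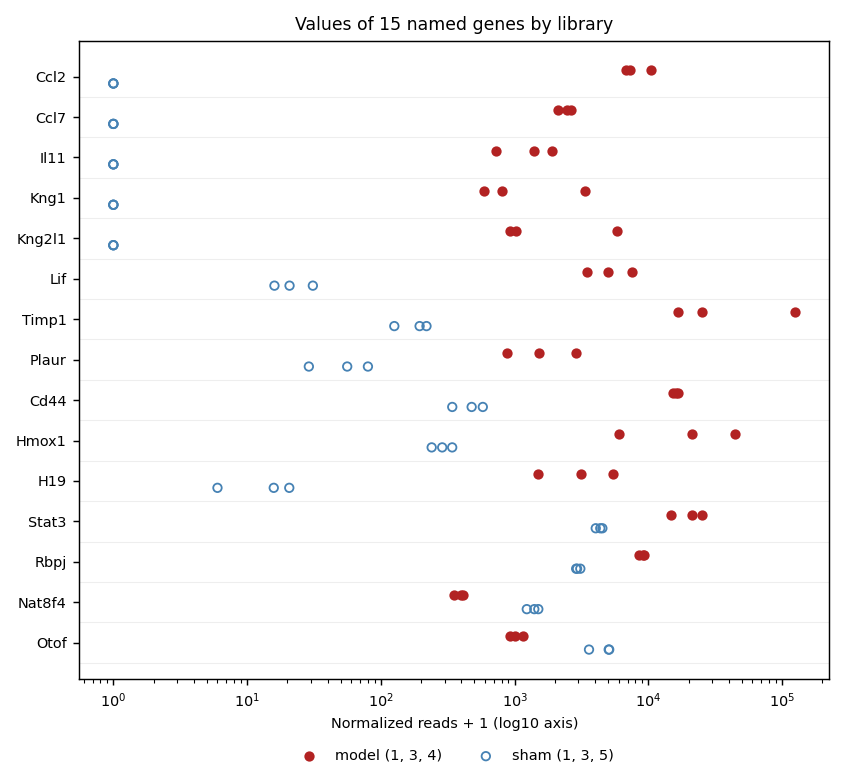
Normalized reads plus 1 on a log10 axis for 15 named genes, with the 3 model libraries (filled circles, upper row of each gene) above the 3 sham libraries (open circles, lower row). The chemokines, Il11 and the kininogens sit at 0 reads in sham, Cd44 and Rbpj show tight groups, and Otof and Nat8f4 are the 2 genes shown that are lower in model.

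The 250 bases upstream of the annotated start are shown for 4 of the genes with the widest separation and for Plaur, the urokinase receptor gene called in every fit. Sequences are from RefSeq on GRCr8, whose positions differ from those of the deposited tables. Capitals mark the motifs searched on both strands, namely AP-1 (TGANTCA), NF-kappaB (GGGA and CC with any 4 bases between them), STAT (TTCNNNGAA) and the TATA box (TATAAA).
Ccl7, chr10:67513845-67514094, plus strand: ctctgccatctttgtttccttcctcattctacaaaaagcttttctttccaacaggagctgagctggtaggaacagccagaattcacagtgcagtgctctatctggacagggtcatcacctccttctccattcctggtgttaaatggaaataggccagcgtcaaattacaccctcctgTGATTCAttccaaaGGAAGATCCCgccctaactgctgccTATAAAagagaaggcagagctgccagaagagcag
Il11, chr1:78098372-78098621, plus strand: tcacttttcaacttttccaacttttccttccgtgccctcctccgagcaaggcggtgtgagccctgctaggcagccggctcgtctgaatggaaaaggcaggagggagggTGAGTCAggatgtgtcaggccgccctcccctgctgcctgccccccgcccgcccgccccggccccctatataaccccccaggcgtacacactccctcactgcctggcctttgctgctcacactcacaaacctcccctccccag
Plaur, chr1:89181113-89181362, plus strand: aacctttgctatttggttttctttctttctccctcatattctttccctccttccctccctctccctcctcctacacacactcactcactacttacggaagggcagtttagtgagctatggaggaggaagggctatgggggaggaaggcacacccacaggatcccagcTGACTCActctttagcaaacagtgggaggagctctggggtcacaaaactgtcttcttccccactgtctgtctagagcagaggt
Kng1, chr11:91340149-91340398, minus strand: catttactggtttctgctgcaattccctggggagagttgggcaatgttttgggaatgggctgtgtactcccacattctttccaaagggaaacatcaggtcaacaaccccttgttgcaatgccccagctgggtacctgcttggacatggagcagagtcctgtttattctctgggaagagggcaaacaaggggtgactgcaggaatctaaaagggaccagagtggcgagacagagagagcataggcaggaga
Kng2l1, chr11:91483169-91483418, plus strand: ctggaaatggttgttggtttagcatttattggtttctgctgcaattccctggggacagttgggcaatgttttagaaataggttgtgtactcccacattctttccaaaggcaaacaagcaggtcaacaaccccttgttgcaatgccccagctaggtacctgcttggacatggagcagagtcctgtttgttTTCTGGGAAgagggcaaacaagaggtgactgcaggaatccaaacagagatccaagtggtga
The Ccl7 stretch held an AP-1, an NF-kappaB and a TATA box match within the last 73 bases. The Il11 and Plaur stretches each held 1 AP-1 match, Kng2l1 held 1 STAT match, and the Kng1 stretch held none of the 4. The stretch upstream of Otof, a gene called lower in model, was searched too, is not shown, and also held none of the 4. The upstream stretches of Kng1 and Kng2l1 were 93% identical over 227 aligned positions. Of all 33469 rat promoters of the same length in the table, 6.34% held the AP-1 letters, 16.4% the NF-kappaB letters, 7.67% the STAT letters and 12.9% the TATA box. Promoters were matched for 69.8% of tested genes, too few for a comparison of called with other genes, so none was made. Of the 2 kininogen genes, Kng2l1 has 2 listed starts, and the first is shown.

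The 64 genes that passed in every fit were taken as a set after their values were seen, and they fall into a few roles. Secreted signals included Lif, a second interleukin-6 family cytokine, with 3459.7, 7527 and 5036 normalized reads in model 1, 3 and 4, against 15.01, 19.77 and 30.02 in sham 1, 3 and 5. Inhba, the activin A subunit, had 15099, 2569.6 and 6980.4 in the model libraries, against 170.1, 206 and 195 in the sham libraries. Hbegf, a heparin-binding ligand of the EGF receptor, had 6903, 5272 and 4955, against 241, 351 and 358. In each, every model library stood above every sham library, as in all 613 genes called higher. Lif peaked in model 3, Inhba and Hbegf in model 1.

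Protease control was another role. Timp1, an inhibitor of matrix metalloproteinases, had 25319, 125632 and 16593 normalized reads in model 1, 3 and 4, against 125, 194 and 218 in sham 1, 3 and 5. Plau, the urokinase plasminogen activator, had 1375, 1274 and 531, against 15.01, 17.3 and 19.67, and its receptor Plaur had 2860.1, 1534 and 881, against 55.0, 79.1 and 28.0. The groups did not overlap in any of the 3 genes, as in all 613 genes called higher. In TPM, reads per length scaled to the same total in each library, Timp1 had 1071, 4453 and 686 TPM in model 1, 3 and 4, against 5.04, 7.18 and 8.65 TPM in sham 1, 3 and 5. Its level was above that of Gfap in model 3 and below it in model 1 and 4, where Gfap had 2845, 1179 and 2825 TPM in model 1, 3 and 4.

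Receptors and adhesion molecules of the set showed some of the tightest groups. Cd44, the hyaluronan receptor, had 16054, 16618 and 15211 normalized reads in model 1, 3 and 4, against 477, 341 and 578 in sham 1, 3 and 5. Itga5, the fibronectin receptor alpha chain, had 4333, 5388 and 4541, against 119, 126 and 119. Cd14, the lipopolysaccharide co-receptor of myeloid cells, had 5338, 4038 and 2188, against 18.8, 43.2 and 70.4. Sdc1, the cell surface proteoglycan syndecan-1, and Tnfrsf12a, the receptor for the cytokine TWEAK, were also in the set. Sdc1 had 20959.5, 3268 and 5504 normalized reads in model 1, 3 and 4, so its mean leaned on model 1. Msr1 and Itgax, a scavenger receptor and an integrin of macrophages, had at least 747 and 622 normalized reads in model, and at most 7.25 and 9.88 in sham.

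Signal transduction and transcription made up another group. Stat3, the transcription factor that interleukin-6 family cytokines activate, had 25036, 21144 and 14899 normalized reads in model 1, 3 and 4, against 4532, 4045 and 4374 in sham 1, 3 and 5 (log2 fold change 2.21 ± 0.22 SE, limma adjusted p = 0.00365). Socs3, its feedback inhibitor, had 7913, 11509 and 7077, against 228, 84.0 and 83.9, the widest change of the group (log2 fold change 6.19 ± 0.65 SE). Sbno2, a transcriptional regulator induced by interleukin-10 and Stat3 in macrophages, rose by 2.99 ± 0.29 on the log2 scale, and Rbpj, the DNA-binding factor of Notch signalling, by 1.59 ± 0.16. Kdm6b, a demethylase of histone H3 lysine 27, rose by 1.68 ± 0.17, and Map2k3, a kinase that activates p38, by 1.84 ± 0.22. Pim1, a kinase gene that Stat3 signalling induces, and Nfkbiz, an NF-kappaB cofactor, rose by 2.75 ± 0.29 and 2.83 ± 0.35. All 8 kept their call in every fit, with limma adjusted p between 0.00351 and 0.00779.

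Rises of a different kind were seen in stress and cytoskeletal genes of the set. Hspb1, a small heat shock protein gene, had 19289, 26395 and 13478 normalized reads in model 1, 3 and 4, against 261, 201 and 474 in sham 1, 3 and 5. Hmox1, which breaks down heme, had 21118, 44416 and 6009, against 239, 287 and 341. Tubb6, a beta-tubulin gene of low abundance in resting brain, had 10078, 14377 and 9678, against 175, 243 and 305. H19, an imprinted long noncoding RNA of fetal tissue, had 5467, 1491 and 3153, against 5.00, 14.8 and 19.7. Xirp1, an actin-binding protein gene best known from striated muscle, had 5877, 1271 and 1447, against 20.02, 44.5 and 51.8. H19 and Xirp1 were highest in model 1 and lowest in model 3, the reverse of Hspb1 and Hmox1, which were highest in model 3. The gene listed as RGD1565462 (chromosome 6, 123176204 to 123332433), for which the table gives no other name, had 23928, 16728 and 12259.8 normalized reads in model 1, 3 and 4 and at most 33.1 in sham.

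Only 3 of the 64 genes fell. Otof encodes otoferlin, a calcium sensor of vesicle release. It had 998, 1148 and 925 normalized reads in model 1, 3 and 4, against 5098, 5058 and 3602 in sham 1, 3 and 5 (log2 fold change -2.15 ± 0.24 SE, limma adjusted p = 0.00422). Nat8f4, an N-acetyltransferase family member, had 395, 351 and 411, against 1504, 1403 and 1233 (log2 fold change -1.84 ± 0.18 SE, limma adjusted p = 0.00351). The third, ENSRNOG00000065856, has no symbol in the table and had 901, 952 and 1281, against 3814, 4943 and 3178. In all 3 the highest model library lay below the lowest sham library, as in all 235 genes called lower.

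Among the 613 higher genes, 9 runs of at least 3 neighbouring tested genes were all called. They included the chemokines Cxcl2, Cxcl1 and Cxcl3 on chromosome 14 (17181062 to 17289511), the matrix metalloproteinases Mmp13, Mmp12 and Mmp3 on chromosome 8 (4497960 to 4653961), and the integrins Itga2 and Itga1 with Pelo on chromosome 2. Pelo (46797853 to 46799746) lies within the span of Itga1 (46653193 to 46812238), so their reads may be shared. On chromosome 1 (182601174 to 182740698) the run held Pycard, the inflammasome adaptor, Trim72, a membrane repair protein gene, and the leukocyte integrins Itgam and Itgax. Itgam had 3547, 5108 and 3684 normalized reads in model 1, 3 and 4, against 641, 441 and 538 in sham 1, 3 and 5, a far smaller change than that of its neighbour Itgax. Mmp12, the macrophage elastase, had 184, 39.1 and 38.9 against 0 in each sham library. A further run, of Kng1, Kng2l1 and Dnajb11 on chromosome 11, ended in an endoplasmic reticulum chaperone gene that rose by only 0.80 ± 0.19 on the log2 scale. There was 0 such run among the lower genes, which were 1.32% of all tested genes, against 3.45% for the higher genes. The numbers of runs were not tested.

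The median transcript length was 2440.0 bases in the higher genes and 2501 in the lower genes, against 2500.0 in all genes tested. The median number of exons was 8 in the higher and 7 in the lower genes, against 8 in all. Single-exon genes made up 2.12% of the higher and 4.26% of the lower genes, against 5.48% of all. The median span of the gene on the genome was 17814.5 bases in the higher and 18771 in the lower genes, against 21128 in all. These differences were not tested.

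Some receptors for injury cytokines rose. Of 26 measured, 8 were higher and 0 lower (30.8% called), with a median log2 fold change of 1.45. This and every list count that follows is to be read beside the 4.77% of all tested genes that were called. Csf2rb, the shared beta chain of the receptors for GM-CSF, interleukin-3 and interleukin-5, had 3637, 8995 and 3454 normalized reads in model 1, 3 and 4, against 150.1, 50.7 and 56.9 in sham 1, 3 and 5. Osmr, the oncostatin M receptor, had 2874, 7921 and 2304, against 253, 103 and 237. Tnfrsf1a, the main receptor for tumour necrosis factor, had 3604, 8122 and 3305, against 607, 630.0 and 583. Il6st, the chain shared by interleukin-6 family receptors, had 16958, 53302 and 16227, against 8872, 7919.9 and 8605, and did not pass (log2 fold change 1.53 ± 0.41 SE, limma adjusted p = 0.0704). All 4 were highest in model 3. Without model 3 the count was the same, 8, and it fell to 3 without sham 1 or sham 3.

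Growth factors gave a few calls. Of 33 measured in several growth factor families, among them EGF, FGF, VEGF and TGF-beta, 3 were higher and 0 lower, namely Hbegf, Inhba and Tgfb1, with a median log2 fold change of 0.97. Tgfb1, a cytokine of wound repair, had 4936, 3238 and 1229 normalized reads in model 1, 3 and 4, against 343, 406 and 407 in sham 1, 3 and 5. The neurotrophin gene Bdnf had 13080.1, 587 and 9708, against 1851, 1906 and 2143. Its model libraries thus lay on both sides of sham, with model 3 lowest, and it did not pass (limma adjusted p = 0.562). Vegfa, the vascular growth factor, had 12669, 7976 and 17968, against 4639, 4953 and 4171, without overlap but short of the threshold (limma adjusted p = 0.0721). The count was 2 without model 1 or any 1 sham library and 6 without astaxanthin 1.

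Stress-induced transcription factors moved unevenly. Of 31 measured, 12 were higher and 0 lower, with a median log2 fold change of 1.28. Maff, a small Maf factor, had 2231, 7276 and 3647 normalized reads in model 1, 3 and 4, against 254, 109 and 224 in sham 1, 3 and 5, and kept its call in 8 of 9 fits. Myc, the growth regulator, had 2090.2, 2661 and 2203, against 249, 188 and 259.8, and Jun, a subunit of AP-1, had 18229, 29247 and 20677, against 6857, 5605 and 7449.6. Egr1, a classic activity-induced gene of neurons, did not pass, with a log2 fold change of 0.27 ± 0.45 (SE; limma adjusted p = 0.757). Egr1 had 24382, 19785 and 19313 normalized reads in model 1, 3 and 4, against 16965, 19877 and 15797 in sham. Without model 3, 6 members were higher and 1 lower, and without sham 3 the count was 0.

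The integrated stress response, the programme by which the factor Atf4 raises amino acid transport and metabolism, rose in part. Of 20 members, 9 were higher and 0 lower, with a median log2 fold change of 1.19. The cystine transporter Slc7a11 had 3898, 4439 and 2541 normalized reads in model 1, 3 and 4, against 1091, 1039 and 1407 in sham 1, 3 and 5. Its partner Slc3a2 had 19009.9, 25453 and 18234, against 8550.5, 8525 and 10043. Trib3, a pseudokinase target of the pathway, had 192, 328 and 108, against 0, 13.6 and 12.4. Atf4 itself had 29305, 22784 and 18686, against 11702, 12551 and 11271, and did not pass (limma adjusted p = 0.0651), as did not Psat1, an enzyme of serine synthesis, which had 3640.3, 7043 and 4020.5, against 10414, 8546 and 10653. Transport genes and Psat1 thus lay on opposite sides of sham. Without model 3, 3 members were higher and 1 lower, and without model 1 or any 1 sham library the count was 0.

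Of 24 p53 targets, 6 were higher and 0 lower, with a median log2 fold change of 0.69. The members that rose were the cell cycle inhibitor Cdkn1a, the 3 Gadd45 stress genes, Sesn2 and the nuclease gene Aen. Gadd45g had 7309.6, 17119 and 6517 normalized reads in model 1, 3 and 4, against 1122, 1155 and 1487 in sham 1, 3 and 5, and Cdkn1a had 8789, 5657 and 3929, against 2010.3, 934 and 1316. Mdm2, which p53 induces and which limits it, had a log2 fold change of 0.67 ± 0.52 (SE; limma adjusted p = 0.469). Without model 3, 2 members passed, and without model 1 or any 1 sham library 1 did.

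Of 21 glucocorticoid-responsive genes, 4 were higher and 0 lower (median log2 fold change 0.18), among them Map3k6, a stress kinase gene. Another measure, the groups that did not overlap, gave 7 members higher and 4 lower in model, where 35.6% of all tested genes did not overlap in either direction, and the mean deviation of the list from sham was -0.20 in model 1, 1.10 in model 3 and 0.22 in model 4. Fkbp5, the chaperone gene most used as a readout of the hormone, had 3750.2, 5572 and 6300.2 normalized reads in model 1, 3 and 4, against 4876, 4239.8 and 4069.5 in sham 1, 3 and 5. Of 21 clock genes, 1 was higher, the repressor Nfil3, and 0 lower (median -0.23). That share of 4.76% was near the 4.77% called of all genes tested. Nfil3 had 3466, 3915 and 2419 normalized reads, against 1127, 662 and 1022. The clock output gene Dbp had 959.9, 5309 and 2544, against 6545, 8628 and 6942, below sham in every model library, and did not pass (limma adjusted p = 0.149). Without sham 1 or sham 3, no glucocorticoid-responsive gene passed, without astaxanthin 1 the count was 7, and Nfil3 did not pass without model 1 or any 1 sham library.

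Filament and actin-linked genes had the largest share of calls among the lists with more than 1 tested member, with 14 of 23 higher and 0 lower (median log2 fold change 1.63). Vim, the intermediate filament of reactive glia and mesenchymal cells, had 22452, 46106 and 11672 normalized reads in model 1, 3 and 4, against 2050.4, 3841 and 5181 in sham 1, 3 and 5. Nes, the progenitor filament nestin, had 4073, 9045 and 3872, against 144, 254 and 667. Flnc, an actin crosslinker, had 12375, 19796 and 25116, against 784, 709 and 1211, one of few genes with its peak in model 4. Msn, moesin, which ties actin to the membrane, had 20922, 29830.1 and 17701, against 2007, 1431 and 2164. Gfap, the filament of astrocytes, had 200461, 99814 and 201186, against 22916, 13459 and 39303, so it was lowest in model 3 among the model libraries, where Vim was highest. Without model 3, 10 of the 23 passed, and without sham 3 the count was 0.

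S100, annexin and galectin genes rose selectively. Of 24 measured, 5 were higher and 0 lower, with a median log2 fold change of 1.38. The annexin Anxa2 and its partner S100a10 form a complex that binds plasminogen activator at the cell surface. Anxa2 had 12566, 29125 and 5000.5 normalized reads in model 1, 3 and 4, against 548, 1064 and 1063 in sham 1, 3 and 5, and S100a10 had 8734, 7544 and 5388, against 841, 1146 and 695. Lgals3, the galectin of activated microglia and macrophages, had 4932, 5454 and 1736, against 108, 104 and 156. S100b, the astrocyte member, had 28076, 82921 and 54613, against 67829.8, 71334 and 83732, and did not pass (log2 fold change -0.56 ± 0.37 SE, limma adjusted p = 0.392). Lgals3 alone kept its call in every fit, so the count was 1 without model 1 or any 1 sham library.

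Coagulation and fibrinolysis genes included many that rose, with 12 of 27 higher and 0 lower and a median log2 fold change of 1.98. Beyond Plau and Plaur, the list included Tfpi2, an inhibitor of serine proteases, with 2489, 5111 and 464 normalized reads in model 1, 3 and 4, against 0, 3.71 and 35.2 in sham 1, 3 and 5. Serpinb2, a serine protease inhibitor gene, had 3761, 84.4 and 552, against 0, 0 and 12.4, and coagulation factor F7 had 750.4, 48.4 and 138 against 0 in each sham library. Both peaked in model 1, whereas Procr and Thbd, the protein C receptor and thrombomodulin of endothelium, peaked in model 3 at 4137 and 22037 normalized reads. Plat, the tissue plasminogen activator, had 12559.7, 39968 and 16356, against 4392, 4305 and 7143 (log2 fold change 1.98 ± 0.43 SE, limma adjusted p = 0.0417), and kept its call in 1 of 9 fits. Without sham 1, the setting with the fewest calls, 3 of the 27 passed.

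Metallothionein and acute-phase genes split by member. Of 18 measured, 7 were higher and 1 lower, and the median log2 fold change was 3.14, or 2.98 once 3 members at 0 in a group were set to their bound. Mt1 and Mt2A, the inducible metal-binding proteins, rose: Mt2A had 7443, 37303 and 4974 normalized reads in model 1, 3 and 4, against 1329.8, 1748 and 1508 in sham 1, 3 and 5. Mt3, the metallothionein of neurons and astrocytes, fell, with 7283, 9133 and 7003, against 13789.6, 14826 and 15222 (log2 fold change -0.91 ± 0.19 SE, limma adjusted p = 0.0367). The binding protein for lipopolysaccharide, Lbp, had 2226, 28011 and 1304, against 7.51, 0 and 38.3, and Il1rn, the interleukin-1 receptor antagonist, had 1414, 1429 and 640.3, against 45.0, 65.5 and 73.5. Ptx3, a pattern recognition protein, was the one member called in every fit, so the count was 1 without model 1, sham 1 or sham 3.

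**Figure D3:**
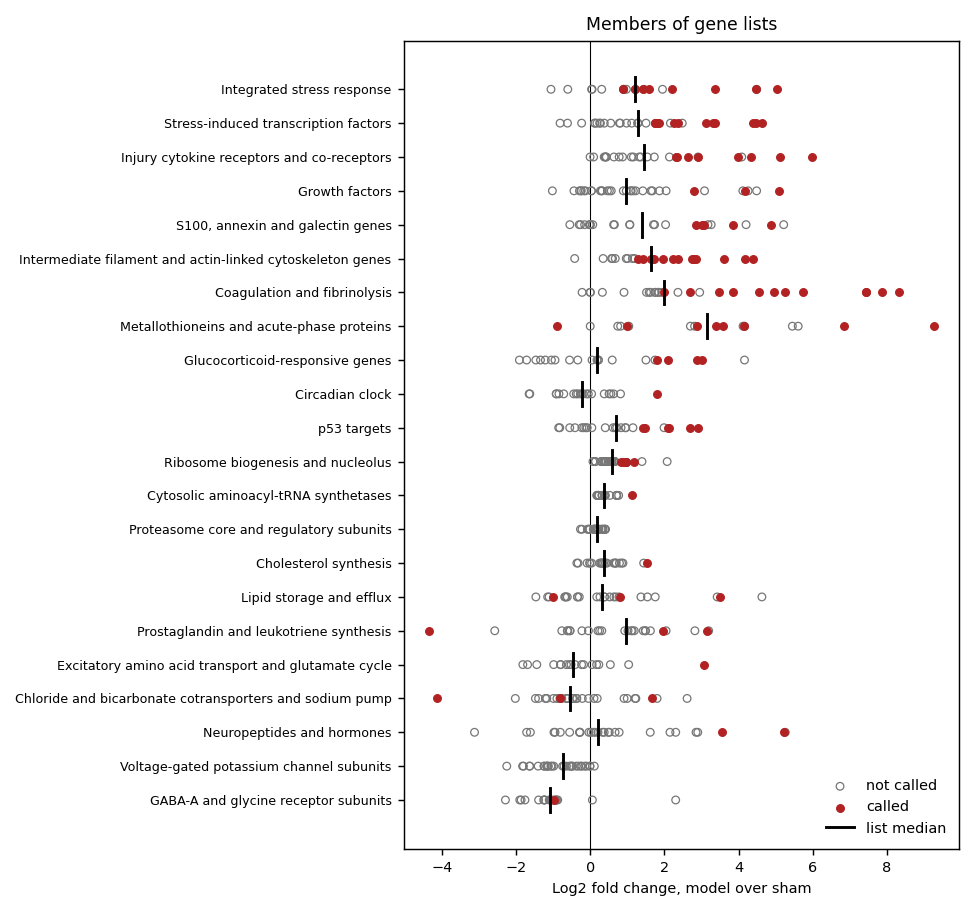
Log2 fold change of model over sham for every tested member (points) of 22 gene lists, with called members filled, other members open and the list's median as a vertical bar. Filament, coagulation and cytokine receptor lists lie mostly right of 0, and the potassium channel and the GABA and glycine receptor lists lie mostly left of 0.

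Genes of protein synthesis lay slightly above sham as groups. All 29 measured genes of ribosome biogenesis had a log2 fold change above 0, with a median of 0.58, and in 23 of them the groups did not overlap, against 35.6% of all genes tested, counted in either direction. Of the 29, 6 passed the test, all higher. Ddx21, a nucleolar helicase, had 7009.8, 7764 and 6762 normalized reads in model 1, 3 and 4, against 3215, 3086 and 3221 in sham 1, 3 and 5. Nop58, a core protein of small nucleolar ribonucleoproteins, had 4173, 4715 and 3822, against 2170.5, 2349.7 and 2033. All 19 cytosolic aminoacyl-tRNA synthetase genes were also above 0, with a median of 0.37. Of them 1 passed (5.26%, near the 4.77% of all genes tested), Eprs. It had 20307, 15886 and 18304, against 8681, 7967 and 8245. In the proteasome list 0 of 32 passed in limma, 26 were above 0 and the median was 0.19. Without model 1 or any 1 sham library, no ribosome biogenesis or synthetase gene passed, and without model 3 the counts were 3 and 2.

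Genes of lipid metabolism were measured in 3 lists. Plin2, which coats lipid droplets, had 11558, 14922 and 4724 normalized reads in model 1, 3 and 4, against 843, 631 and 1042 in sham 1, 3 and 5, and with Dgat1, which makes triglyceride, was higher among 26 lipid storage and efflux genes. Fabp3, a fatty acid carrier of neurons and muscle, was the 1 that fell, with 1060.5, 1348 and 1509, against 2838, 3151 and 2023. Of 23 cholesterol synthesis genes, where 4.35% were called against 4.77% of all genes tested, Msmo1 alone passed. It had 18834, 16634 and 20402 normalized reads in model, against 5799.6, 6066 and 7735 in sham, and kept its call in 2 of 9 fits. Of 26 prostaglandin and leukotriene genes, 2 were higher and 1 lower. Ptgs2, the inducible cyclooxygenase, had 33729.6, 11256 and 25979, against 2416, 2432 and 2469, and Ltc4s, the leukotriene C4 synthase, had 6.52, 0 and 12.7, against 71.3, 97.6 and 121. Without model 1 or any 1 sham library, none of these genes of lipid storage or of prostaglandin and leukotriene synthesis passed. Without astaxanthin 1, 6 genes of lipid storage and efflux and 3 of cholesterol synthesis passed, and without model 4, 7 of lipid storage and efflux did.

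Genes of neuronal signalling lay below sham as groups but seldom passed the test. Of 22 glutamate receptor subunits, 0 had a log2 fold change above 0, the median was -0.98, and 1 was called, Grm3, the metabotropic receptor of astrocytes and neurons. Grm3 had 1419, 1644 and 1984 normalized reads in model 1, 3 and 4, against 6439, 4436 and 5435 in sham 1, 3 and 5 (log2 fold change -1.69 ± 0.22 SE, limma adjusted p = 0.0102), and kept its call in 8 of 9 fits, losing it without sham 1. The AMPA receptor subunit gene Gria2 had 20254, 8896 and 25105, against 36531, 43481 and 33412, and did not pass (limma adjusted p = 0.0912). Of 18 GABA-A and glycine receptor subunits, 2 were above 0 with a median of -1.10, and Glrb, the beta subunit of the glycine receptor, was the 1 called. The list of 31 voltage-gated potassium channel subunits left out Kcnv2, which was called lower. Of the 31, 1 was above 0, the median was -0.75, and 0 passed in limma, though 5 did without model 4 and 4 without astaxanthin 1. The mean deviation of the glutamate receptor list from the sham mean was -0.63 in model 1, -1.86 in model 3 and -0.31 in model 4. Without model 3 the medians of the 3 lists were -0.57, -0.74 and -0.49, and without astaxanthin 1 up to 5 members passed in each of the receptor lists. Glrb kept its call in 2 of 9 fits. Its list had 0 calls without model 1, model 3, astaxanthin 2, astaxanthin 3 or any 1 sham library.

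Ion transporters gave isolated calls. Of 30 chloride and bicarbonate cotransporters and sodium pump subunits, 1 was higher and 2 lower. Slc4a3, an anion exchanger of neurons and heart, had 4655, 3144 and 4880.0 normalized reads in model 1, 3 and 4, against 7207, 7696 and 7278 in sham 1, 3 and 5. Slc12a5, the potassium and chloride exporter that sets inhibitory signalling in neurons, had 20382, 9191 and 28089, against 42499.8, 45192 and 34551, and did not pass (limma adjusted p = 0.107). Of 18 glutamate transport and cycle genes, 1 rose (5.56%, near the 4.77% called of all genes tested). It was Slc1a5, a glutamine carrier of low level in sham, with 1373, 2545 and 1188, against 184, 198 and 194. The main glutamate transporter of astrocytes, Slc1a2, had a log2 fold change of -0.24 ± 0.54 (SE; limma adjusted p = 0.822). Of 27 purine signalling genes, P2ry2 rose and P2ry12 fell, and of 13 protocadherins Pcdh20 alone passed, lower. Without model 1 or any 1 sham library, none of these genes passed.

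Of 29 neuropeptide and hormone genes, Nppb and Adm, which encode natriuretic peptide B and adrenomedullin, passed and 0 fell. They were 6.90% of the list, against 4.77% called of all genes tested. Adm had 314, 3111 and 805 normalized reads in model 1, 3 and 4, against 90.1, 77.8 and 65.2 in sham 1, 3 and 5. Trh, the thyrotropin-releasing hormone gene, had 39935, 9914 and 9004, against 1740.1, 95.1 and 375, one of the widest separations short of the threshold (limma adjusted p = 0.0501). Npy, neuropeptide Y, had 11846, 11283 and 8556, against 2256, 3829.6 and 1099, without overlap (limma adjusted p = 0.0958). Neither Nppb nor Adm passed without model 1, model 3 or any 1 sham library.

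Energy metabolism genes shifted little. Of 30 nuclear oxidative phosphorylation genes, 2 were above 0, the median was -0.31, and in 19 the groups did not overlap, all 19 lower in model, against 35.6% of all genes tested in either direction. Ndufs3, a subunit of complex I, was the 1 called, with 3385, 3344 and 3759 normalized reads in model 1, 3 and 4, against 5352, 6381 and 5383 in sham 1, 3 and 5. The 13 mitochondrially encoded genes had a median of -0.16 and 0 passed in limma. Ndufs3 did not pass without model 1, astaxanthin 2 or any 1 sham library.

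The largest falls on the log2 scale came from genes of low level. Kcnv2, a modifier subunit of potassium channels, was at 0 in every model library, against 18.8, 29.6 and 73.5 normalized reads in sham 1, 3 and 5, at least 14.2-fold lower. Krt23, a keratin gene, and Slc12a1, a renal cotransporter gene, were likewise at 0 in model, and at 26.3, 12.4 and 17.6 and at 16.3, 9.88 and 29.0 in sham 1, 3 and 5. Falls in genes of higher level were smaller. Ngb, the oxygen-binding neuroglobin, had 54.9, 108 and 104 normalized reads in model 1, 3 and 4, against 717, 439 and 911 in sham 1, 3 and 5, and kept its call in 8 of 9 fits. Btbd17, a BTB domain gene, had 64.2, 209.9 and 186, against 1206, 1318 and 1256, and kept its call in 1. Best3, an anion channel family member, and Atoh7, a transcription factor of neurogenesis, had at most 7.45 normalized reads in any model library and at least 39.3 in any sham library.

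Counted in reads, the picture was different. Rtn1 and Rab3a were among the largest called losses. Rtn1, a reticulon of the neuronal endoplasmic reticulum, had 49991, 33158 and 57253 normalized reads in model 1, 3 and 4, against 91456, 104096 and 83009.5 in sham 1, 3 and 5. Rab3a, a GTPase of synaptic vesicles, had 13479, 9659 and 21781, against 38328, 45954 and 36393. Itm2c, Dynll2, Ppp3ca, Tspyl4 and Pfkm were among the largest losses as well, with log2 fold changes between -1.54 and -0.84. Rab3a and Tspyl4 kept their call in 5 of 9 fits, the most among those named. Pfkm, the muscle type phosphofructokinase of glycolysis, had 18896, 13386 and 24014 in model, against 38607, 39816 and 39006 in sham, where the values lay close together.

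The largest called gains in reads included those of the unnamed gene ENSRNOG00000045654, Gfap, Timp1, Spp1, Hmox1, Vim and Rplp0. ENSRNOG00000045654 (chromosome 20, 3856006 to 3873227) had 9998, 150438 and 25814 normalized reads in model 1, 3 and 4, against 0, 0 and 1045 in sham 1, 3 and 5, and kept its call in 2 of 9 fits. Spp1, osteopontin, had 5371, 64209.7 and 11591, against 322, 189 and 1116. Rplp0, a ribosomal protein gene often used as a reference in quantitative PCR, had 41185, 52305 and 31508, against 18772, 17663 and 22091. It rose by 1.07 ± 0.24 on the log2 scale (limma adjusted p = 0.0441), a call kept in 2 of 9 fits. Actb and Gapdh, other common reference genes, had log2 fold changes of 0.59 ± 0.28 and -0.32 ± 0.23 (SE; limma adjusted p = 0.244 and 0.429). Actb lay above and Gapdh below sham in every model library.

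Cell type markers were measured to describe what the tissue held. Of 18 markers of infiltrating and activated myeloid cells, 9 were higher and 0 lower, all 18 were above 0, and the median log2 fold change was 3.33. Their summed level was 26658 to 112941 normalized reads in the model libraries and 3643 to 5876 in the sham libraries. Gpnmb, a glycoprotein of phagocytes, had 4415, 4921 and 4262 normalized reads in model 1, 3 and 4, against 387, 327 and 696 in sham 1, 3 and 5. Of 11 markers of homeostatic microglia, 0 were higher and 3 lower. P2ry12, the purine receptor that defines resting microglia, had 249.5, 187 and 275, against 973, 1041 and 947, and Tmem119 and Gpr34 fell with it. The summed level of the 11 was 16223 to 19189 in model and 19152 to 22048 in sham. Aif1, a gene of both states, had 497, 1365 and 889, against 623, 600.4 and 711, and did not pass (limma adjusted p = 0.542). The myeloid count was 5 without sham 1 or sham 3, and the microglia count was 0 without model 1, model 4, astaxanthin 3 or any 1 sham library.

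Neutrophil markers set model 3 apart. Of 14 measured, 3 were higher and 0 lower, namely Cxcr2, the gelatinase Mmp9 and Itgam, and the median log2 fold change was 2.90, or 2.97 once 4 members at 0 in a group were set to their bound. S100a8 and S100a9, neutrophil markers of the S100 family, had 3702 and 8232 normalized reads in model 3, but 71.6 to 235 in model 1 and 4, and 8.28 to 22.5 in sham. Mmp9, by contrast, had 3851, 2702 and 2386 in model 1, 3 and 4, against 138, 205 and 83.9 in sham 1, 3 and 5. The mean deviation of the list from the sham mean was 2.43 in model 1, 4.74 in model 3 and 2.02 in model 4. Lymphocyte markers gave 1 call of 13, Cd8a, with 19.6, 145 and 29.0 normalized reads in model and 0 in each sham library, while the defining marker Cd3e had 11.2 to 36.0 in model and 6.21 to 35.8 in sham. Erythrocyte markers gave 0 calls of 8 in limma, and their summed level was 42449, 174274 and 17172 in model 1, 3 and 4, against 17998, 20297 and 30082 in sham 1, 3 and 5. The part that blood cells in model 3 had in its other values was not tested. Without model 1 or any 1 sham library, 1 neutrophil marker passed and Cd8a did not.

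Vessel markers rose in part. Of 12 endothelial markers, 3 were higher and 0 lower. Kdr, the main receptor for Vegfa, had 3814, 4820.2 and 1787 normalized reads in model 1, 3 and 4, against 520.4, 586 and 603 in sham 1, 3 and 5. Esm1, a proteoglycan of sprouting tip cells, had 196, 5624 and 299.8, and at most 6.18 in sham, and Slc2a1, the glucose transporter of the blood-brain barrier, had 18959, 36320.5 and 25123, against 10421, 8734 and 11665. Pecam1, the pan-endothelial adhesion molecule, had 2653, 18137 and 3079, against 1177, 1055 and 979, and did not pass (limma adjusted p = 0.0859). Of 16 pericyte, smooth muscle and fibroblast markers, 0 passed in limma and the median was 0.92, or 0.32 without model 3. The endothelial count was 0 without any 1 sham library.

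Markers of neurons differed by kind. None of 12 pan-neuronal markers passed in limma and 0 of them had a log2 fold change above 0, with a median of -0.78, or -0.36 without model 3. Their mean deviation from sham was -0.43 in model 1, -1.81 in model 3 and -0.27 in model 4. Cortical excitatory markers behaved alike, at -0.69, -2.19 and -0.08, but striatal markers did not, at -0.82, 0.01 and -1.37. The striatal markers also varied widely within sham, at 0.69, 1.07 and -1.75 in sham 1, 3 and 5. Drd1, the dopamine receptor of striatal projection neurons, had 2371, 4055 and 956 normalized reads in model 1, 3 and 4, against 4820.1, 6076 and 619 in sham 1, 3 and 5. Model 4 and sham 5 were therefore low in striatal and model 3 in cortical RNA, and the part that the sampled region had in the other results was not tested.

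Glial identity genes gave few calls. Of 14 astrocyte identity markers, 1 was higher and 2 lower. Fgfr3 and Slc7a10, a growth factor receptor and a serine carrier of astrocytes, fell, and the transcription factor Sox9 rose. Of 12 myelin markers Opalin alone passed. It had 1679.6, 4371 and 2209.9 normalized reads in model 1, 3 and 4, against 7566, 6266 and 11597 in sham 1, 3 and 5. Mbp, the myelin basic protein gene, had 104656, 1076970 and 219987, against 382794, 188567 and 503330, so model 3 stood above and model 1 below all sham libraries (limma adjusted p = 0.906). Of 11 markers of oligodendrocyte precursors, Gpr17 and Neu4 fell. Gpr17, a receptor of precursors on their way to myelination, had 1469, 717 and 2072, against 5728, 3550.4 and 6599. No glial identity marker passed without model 1 or any 1 sham library. Cerebellar, choroid plexus, interneuron and ependymal marker lists each had 0 calls in limma. The median log2 fold change was 0.55 over 12 cerebellar markers, with 9 above 0, and -0.08 over 9 interneuron markers, whose mean deviation from sham was 0.41, -0.53 and -0.15 in model 1, 3 and 4.

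**Figure D4:**
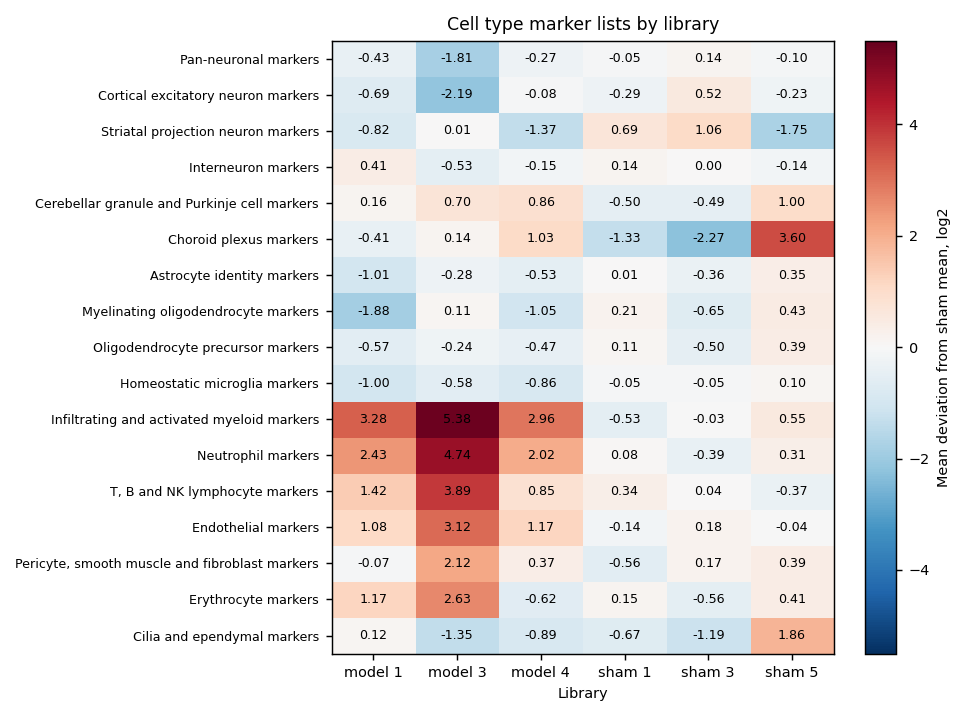
Mean deviation from the sham mean, in log2(normalized reads + 1), of 17 cell type marker lists (rows) in model 1, 3 and 4 and then sham 1, 3 and 5 (columns), with the value printed in each cell. Model 3 has the highest myeloid, neutrophil and endothelial values and the lowest cortical value, and sham 5 has the highest choroid plexus value.

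The study's interest in apoptosis and Toll-like receptors was followed through named genes. Bax, which promotes apoptosis, had 1516, 2214 and 1269.8 normalized reads in model 1, 3 and 4, against 1239.7, 1359 and 1100.5 in sham 1, 3 and 5, and Bcl2, which opposes it, had 899, 1299.7 and 879, against 1111, 952 and 1392; the groups overlapped in both. Tlr2 had 466, 778 and 396, against 175, 226 and 174, and Tlr4 had 198, 465 and 136, against 73.8, 75.4 and 99.4. Neither Tlr2 nor Tlr4 overlapped between groups, and neither passed (limma adjusted p = 0.133 and 0.145). Tlr1, which pairs with Tlr2, had 522, 461 and 447, against 21.3, 22.2 and 42.4, and passed in every fit. The adaptor Myd88 had 2467, 2795 and 1662, against 375, 411 and 366, and kept its call in 5 of 9 fits.

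The transcript sheet gave fewer calls than the gene sheet. Of 32824 transcripts tested, 226 (0.689%) passed, 190 higher (0.579%) and 36 lower (0.110%). A second test asked whether a transcript had moved against the other transcripts of its gene, and 40 of 20532 (0.195%) passed, 20 higher (0.0974%) and 20 lower (0.0974%), in 27 of 7488 genes. Of these 27 genes, 4 were called higher as genes and 23 were not called. Transcript values are estimates that divide reads between overlapping isoforms, so 19 of the 40 transcripts that took exactly 0 or 100% of their gene in every library of a group are weaker evidence than the rest. Another 2 belonged to Kng2l1, whose share is undefined in sham. The remaining 19 had neither feature, but some came near the first. Sgk1-203, for example, held 0%, 0.064% and 0.016% of its gene in sham 1, 3 and 5. Of all 20532 transcripts in the second test, 1212 were at exactly 0 or 100% in every library of a group.

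Uxs1, which makes the sugar donor for proteoglycan chains, held the transcript with the smallest p among those called whose share stayed between 0 and 100% in every library. This transcript, Uxs1-208, of 15 exons, held 12.7%, 22.5% and 14.3% of the gene in model 1, 3 and 4, against 87.5%, 88.2% and 93.6% in sham 1, 3 and 5 (limma adjusted p = 0.00241). Uxs1-205, of 14 exons, held 54.4%, 36.5% and 58.9%, against 4.40%, 6.55% and 5.04% (limma adjusted p = 0.0121). The gene as a whole did not pass. Ttc9c-203 behaved in the same direction as Uxs1-208, with 7.35%, 4.62% and 5.52% of its gene in model, against 49.9%, 53.8% and 54.3% in sham. Dync1li2, which encodes a light intermediate chain of the dynein motor, had 15616, 18869 and 17149.7 normalized reads in model 1, 3 and 4, against 14129, 16081 and 12646 in sham. Its transcript Dync1li2-202 held 95.7%, 97.2% and 95.3% of the gene in model, against 13.4%, 40.8% and 11.3% in sham, a call kept in 4 of 9 fits.

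Metabolic and signalling genes were among the exchanges as well. Eno1-201, the transcript of 12 exons of the glycolytic enzyme enolase 1, held 43.9%, 48.9% and 42.4% of its gene in model 1, 3 and 4, against 81.1%, 83.1% and 82.1% in sham 1, 3 and 5 (limma adjusted p = 0.0115). The Eno1 gene itself had a log2 fold change of 0.25 ± 0.22 (SE; limma adjusted p = 0.529). Clic1-204, a transcript of an intracellular chloride channel gene, held 69.5%, 71.0% and 60.9%, against 18.8%, 22.1% and 21.2%, and Clic1-201 fell in step. Chi3l1-202, of a secreted glycoprotein of reactive astrocytes, held 89.8%, 86.8% and 82.7%, against 33.6%, 43.6% and 22.9%, while Chi3l1-201 fell in step. These transcripts of Clic1 and Chi3l1 kept their call in 4 of 9 fits. The Clic1 gene itself rose by 1.67 ± 0.39 on the log2 scale (SE, limma adjusted p = 0.0476), while Chi3l1 as a gene had a log2 fold change of 1.65 ± 0.51 and did not pass. Tnfrsf1b, the second receptor for tumour necrosis factor, had 90.2%, 97.5% and 94.4% of its reads in Tnfrsf1b-202 in model, against 0%, 0% and 2.54% in sham. Scarf1-202, of an endothelial scavenger receptor, held 97.2%, 96.5% and 97.3%, against 8.40%, 32.7% and 35.9%. As genes, Tnfrsf1b and Scarf1 had log2 fold changes of 1.36 ± 0.59 and 2.15 ± 0.69 (SE), highest in model 3, and did not pass.

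Among the 10 genes with the smallest p, most exchanges were all or none. Rasgef1a-202 took 100% of its gene in every model library and 10.1%, 17.5% and 24.7% in sham 1, 3 and 5. Fat3-203 was at 0% in model and at 63.1%, 66.3% and 71.5% in sham, and Hadhb-202 was at 98.7%, 99.4% and 100.0% in model and at 0% in sham. Cystm1-203 and Rbm33-203 took 23.8% to 39.5% and 8.94% to 12.6% in model and 0% in sham. Kcnj15-209, Col6a3-201 and Stard13-203 took less in model than in sham. Col6a3, a collagen of the microfibril network, was the only one of the 10 genes that was also called as a gene, and the only one in the set of 64. The count of transcripts rose to 132 when the 6 model and sham libraries were fitted alone.

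**Figure D5:**
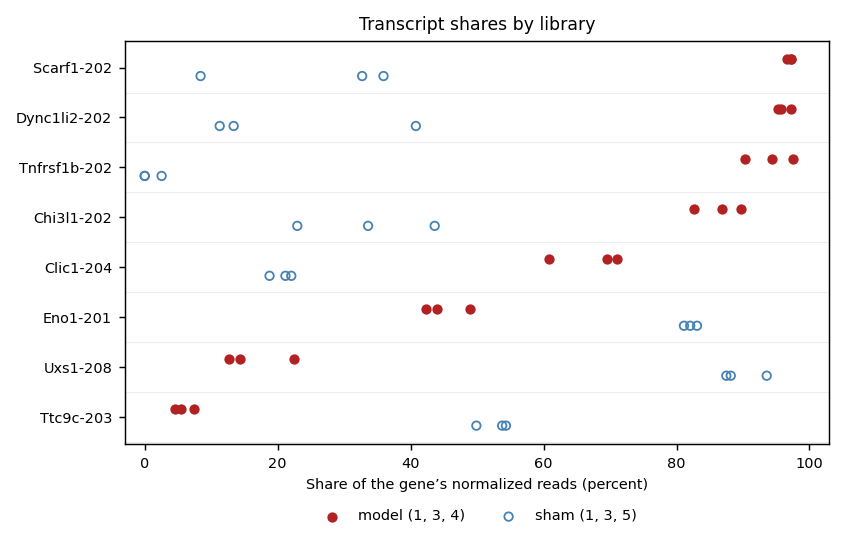
Share of the gene's normalized reads held by each of 8 transcripts (percent, horizontal axis), with the 3 model libraries (filled circles, upper row) above the 3 sham libraries (open circles, lower row). Model and sham libraries do not overlap in any of the 8, from Ttc9c-203, Uxs1-208 and Eno1-201, lower in model, to Scarf1-202, higher in model.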

How the data were processed

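The authors deposited a gene table and a transcript table of normalized signal values, which are read counts divided by a size factor per library. The tools named for the authors' work are STAR, StringTie, DESeq2 and FastQC, on the rn7 build, per the submitters' processing notes; versions are not given in the sources used here. In each of the 9 libraries the deposited values were whole multiples of 1 read within 0.01 for 100% of values, so whole reads were recovered for the count tests. Gene positions are those of the deposited tables. Per the labels, RNA came from brain tissue.

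Group means of log2(value + 1) were subtracted to give fold changes, which were tested with limma 3.58.1 (trend and robust) in 1 fit of all 9 libraries, contrast model minus sham, two-sided, with Benjamini-Hochberg adjustment and a threshold of 0.05. The pseudocount of 1 understates the change of low genes. Transcripts were tested alike, and transcript ratios where the gene averaged at least 100 and the transcript and the rest at least 10. Levels in TPM were computed from the recovered reads and the listed lengths. The fits were tested on simulated data. Alternatives included edgeR 4.0.16 and DESeq2 1.42.0 on the recovered reads. Members of 46 gene lists were described by counts and medians; the members and lists were chosen with earlier results of these data known. Named genes were the largest rises and falls by fold, separation and reads, genes at 0 in sham, the list members with the smallest p, and 16 genes given whatever their values. Other named genes, among them Bdnf, Vegfa, Egr1, Atf4, Trh and Npy, were chosen after their values were seen. Some genes that meet these rules are not reported here.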

Additional observations from a re-analysis of the deposited data

How the results depend on the processing

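The count of 848 genes stayed within 1.5 times under the other scalings, filters and pseudocount, at 683 to 902, with the 6 model and sham libraries alone at 863 and with edgeR at 721. It was 2920 with DESeq2, where 63.9% of calls were higher in model, against 72.3% in the limma fit and 80.0% with edgeR. A similar count did not mean the same genes. Of the 848 genes, 651 to 830 also passed under the other scalings, filters and pseudocount. With the 6 libraries alone 612 of them did, with edgeR 692 and with DESeq2 834. Leaving out 1 library gave 73 to 1611 genes, 98 to 493 transcripts against 226, and 61 to 101 transcript ratios against 40. Ratios numbered 132 with the 6 libraries alone. Leaving out astaxanthin 1 and model 3 together, a choice made after seeing the data, gave 2632 genes. The cause of these differences was not tested. With the replicate number as a block, 0 genes, 0 transcripts and 0 ratios passed in limma, with 2651 genes at an unadjusted p under 0.05. The model and sham groups share only the numbers 1 and 3, and their deviations correlated at 0.07 and -0.04, so the numbers were not taken as pairs.

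Among the named genes whose direction was followed through these settings, it turned round in 4, none of them called. In every called gene the groups did not overlap, so leaving out libraries could not turn its direction. Those settings therefore say nothing about the direction of called genes. F7, Clic1, Chi3l1 and Scarf1 were among the genes not followed. Mbp was at 0.40 with edgeR, 0.38 with DESeq2, 0.32 with the block, and -1.13 to 0.56 over the fits without 1 library. Cd3e was at -0.19 under quantile normalization, -0.43 with the block, -0.15 without model 3 (also with astaxanthin 1 left out), and -0.42 to 0.76 over the fits without 1 library. Drd1 ranged over the fits without 1 library from -1.37 to 0.28, and Bcl2 at 0.072 with the block.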
